A study of Mus musculus with 4 samples.

Results

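The genes described here are 8 transcription factors that mark or specify the primitive streak and the first mesoderm of the mouse embryo: T, Eomes, Mixl1, Tbx6, Mesp1, Mesp2, Msgn1 and Evx1. They were chosen by name for that role, out of 37620 genes with a row of read counts, and all 8 were among the 15462 genes that the authors kept after removing genes of low expression. RNA was sequenced from R1 mouse embryonic stem cells (ESCs) of strain 129/Sv, either wild type (WT) or lacking Cripto (Cripto KO, for knockout). Each genotype was grown in serum/LIF, where leukemia inhibitory factor (LIF) holds ESCs in a naive pluripotent state, or was seeded at low density in N2B27 medium with bFGF and Activin A (20 ng per ml) for 6 days (F/A), a regime under which ESCs turn into EpiSCs, the stem cells of the epiblast. Cripto is a cell-surface co-receptor of Nodal, and its gene in the mouse is Tdgf1. The study worked with 2 Cripto KO clones, and which of them was sequenced is not given in the sources used here. Each of the 4 conditions had 1 library, so every difference below is between single cultures, no value has a replicate error, and no test between conditions could be made.

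In the embryo, Nodal, BMP4 and WNT3 signals acting on the posterior epiblast induce the primitive streak, through which cells pass to become mesoderm and endoderm. The T-box factors T (Brachyury) and Eomes are among the first genes switched on there, with the homeobox factors Mixl1 and Evx1. Cells leaving the streak then express Mesp1, Msgn1 and Tbx6, whereas Mesp2 acts later, when somites are segmented. EpiSCs resemble the epiblast of the egg cylinder and are known to express some streak genes at variable levels.

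Library totals ran from 15230856 to 17315442 counts. In F/A Cripto KO only 3 genes had an odd count (0.0160% of its genes with counts, against 53.1% to 53.6% in the other 3 libraries), so its counts were halved wherever an interval was computed. Counts printed below are as deposited, not halved. The detection limit was set at 3 counts, and at 6 in F/A Cripto KO. Tdgf1 had 18714 counts in WT and 945 in Cripto KO in serum/LIF, and 1572 and 86 in F/A, so that it was lower in the Cripto KO library of each medium. The 9 markers of naive pluripotency summed to 4977 and 4345 cpm (counts scaled to a library total of 1000000) in serum/LIF WT and Cripto KO and to 84.8 and 70.8 cpm in F/A, with Nr0b1 at 0 in both F/A libraries and Prdm14 at 0 in F/A Cripto KO. The 7 markers of the primed state summed to 208 and 221 cpm in serum/LIF and to 1810.0 and 1470.2 cpm in F/A. Much of the F/A sums was Krt18, and without it they were 853 cpm in WT and 442 cpm in Cripto KO, against 199 and 216 cpm in serum/LIF. The primed markers did not all go one way: Otx2 had 1307 counts in serum/LIF WT, 2375 in F/A WT, 1023 in serum/LIF Cripto KO and 678 in F/A Cripto KO, and Pou3f1 had at most 15 counts in any library.

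The members lie at 7 loci on 6 chromosomes of NCBIM37 (mm9), with Mesp1 and Mesp2 as neighbours. Of the 7 members with an entry in the RefSeq promoter table (all but Mixl1), 3 held the TCF/LEF core CTTTGA, read on both strands, by which the nuclear effectors of WNT signalling bind DNA. These were T, Mesp1 and Msgn1, whereas 16% of all 32851 promoters of the same length held it. The T-box core ACACCT, on both strands, was present in 4 members (T, Mesp1, Mesp2 and Evx1) and in 13.7% of all promoters. The longer letters TCACACCT, which include that core, were found in Mesp1 alone among the members, and the FoxH1 letters TGTNNATT, a site type of the Nodal pathway, in Mesp2 alone; their shares among all promoters were 1.27% and 12.2%. The promoters of Eomes and Tbx6 held none of these letters in the window searched, which ran from 250 bases before the start site to 50 after it. The promoters with a TCF/LEF core are printed here from GRCm38.p6, 5′ to 3′ on the strand of the gene, with that of Eomes for comparison since Eomes changed most between the genotypes. Each runs from 250 bases before the start site to 30 after it, and capitals mark the TCF/LEF core (CTTTGA or TCAAAG) and the T-box core (ACACCT or AGGTGT). The windows are chr17:8434173-8434452 on the plus strand for T, chr7:79793561-79793840 on the minus strand for Mesp1, chr12:11208919-11209198 on the minus strand for Msgn1 and chr9:118477939-118478218 on the plus strand for Eomes.
T: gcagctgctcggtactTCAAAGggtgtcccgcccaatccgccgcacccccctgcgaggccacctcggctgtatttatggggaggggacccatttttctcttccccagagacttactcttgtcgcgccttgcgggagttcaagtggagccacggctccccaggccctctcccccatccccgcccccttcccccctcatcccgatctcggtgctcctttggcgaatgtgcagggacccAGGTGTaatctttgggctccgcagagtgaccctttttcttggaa
Mesp1: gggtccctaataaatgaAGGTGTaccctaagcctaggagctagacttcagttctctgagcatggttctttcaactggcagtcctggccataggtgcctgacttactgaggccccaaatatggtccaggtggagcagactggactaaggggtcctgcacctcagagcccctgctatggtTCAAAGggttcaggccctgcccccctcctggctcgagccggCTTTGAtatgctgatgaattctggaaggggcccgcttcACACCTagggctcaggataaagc
Msgn1: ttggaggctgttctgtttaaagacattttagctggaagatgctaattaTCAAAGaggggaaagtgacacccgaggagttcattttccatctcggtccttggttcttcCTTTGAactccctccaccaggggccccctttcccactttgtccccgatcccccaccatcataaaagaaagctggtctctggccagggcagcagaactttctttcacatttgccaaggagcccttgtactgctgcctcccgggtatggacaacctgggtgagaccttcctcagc
Eomes: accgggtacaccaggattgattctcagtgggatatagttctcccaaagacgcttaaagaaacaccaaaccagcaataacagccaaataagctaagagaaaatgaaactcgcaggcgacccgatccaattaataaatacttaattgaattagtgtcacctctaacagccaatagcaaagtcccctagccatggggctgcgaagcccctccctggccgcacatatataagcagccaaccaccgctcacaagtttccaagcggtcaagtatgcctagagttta

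Counted from the start site, the T promoter had its TCF/LEF core at -234 and its T-box core at -14. Mesp1 had TCF/LEF cores at -72 and -31 and T-box cores at -233 and 7, the latter inside the longer T half-site. Msgn1 had TCF/LEF cores at -202 and -143. A match is a string of letters, and binding was not measured in these data.

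**Figure D1:**
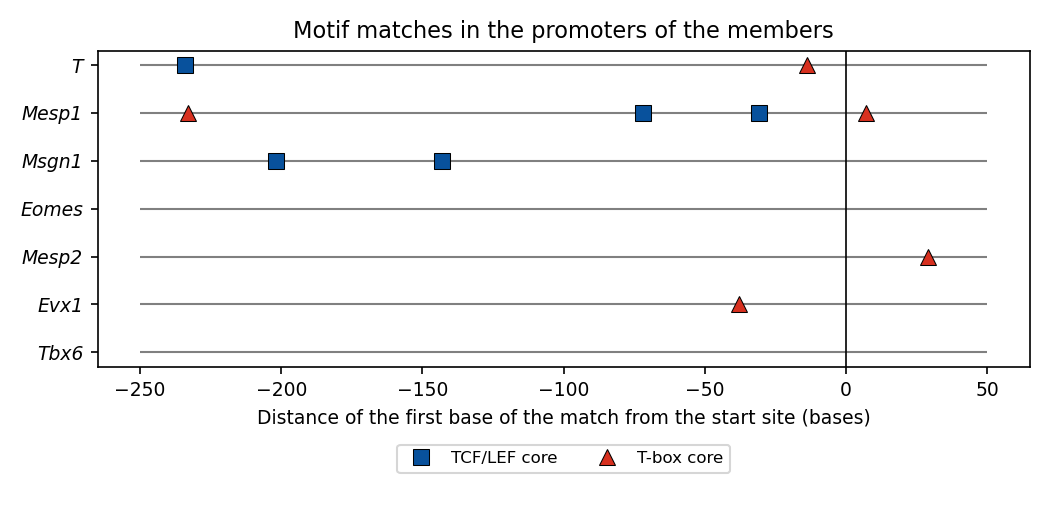
Motif matches in the promoters of the 7 members with a RefSeq promoter. The horizontal axis gives the distance in bases of the first base of a match from the start site, squares are TCF/LEF cores and triangles T-box cores; T and Mesp1 carry both, Msgn1 carries the TCF/LEF core only, and the lines of Eomes and Tbx6 are empty.

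The question of the study was how loss of Cripto affects the passage from ESC to EpiSC, and the streak factors were first compared by level. T was by far the most abundant of the 8 in F/A. Per kilobase of merged exon, T stood at 248 cpm per kb in F/A WT, above Eomes at 31.0, and these were followed by Msgn1 (5.10), Evx1 (3.51), Mixl1 (3.46), Mesp1 (2.06), Tbx6 (1.89) and Mesp2 (1.19). The counting intervals of neighbours in this order did not overlap between T and Eomes, Eomes and Msgn1, or Mixl1 and Mesp1, and overlapped for the other 4 pairs. T made up 83.7% of the summed level per kb of the 8 genes in that library.

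In F/A Cripto KO the order was T (154 cpm per kb), Eomes (6.45), Msgn1 (5.15), Evx1 (3.97), Mesp1 (2.29), Mixl1 (0.997), Mesp2 (0.853) and Tbx6 (0.775), with T at 88.2% of the sum. Of the neighbours in this order, only T and Eomes had intervals that did not overlap. The overlap of Eomes with Msgn1 in this library depends on the length used: per kb of median transcript, Eomes stood at 9.34 (8.13 to 10.7) and Msgn1 at 5.15 (3.27 to 7.73). In serum/LIF the order was different, and Mesp2 had the highest value of the 8, at 1.999 cpm per kb in WT and 1.40 in Cripto KO. Its interval overlapped that of Tbx6 in serum/LIF Cripto KO. Per kb of median transcript it also overlapped that of Eomes in serum/LIF WT. Summed over the 8 genes without regard to length, the libraries held 11.7 cpm in serum/LIF WT, 733 in F/A WT, 7.56 in serum/LIF Cripto KO and 405 in F/A Cripto KO.

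**Figure D2:**
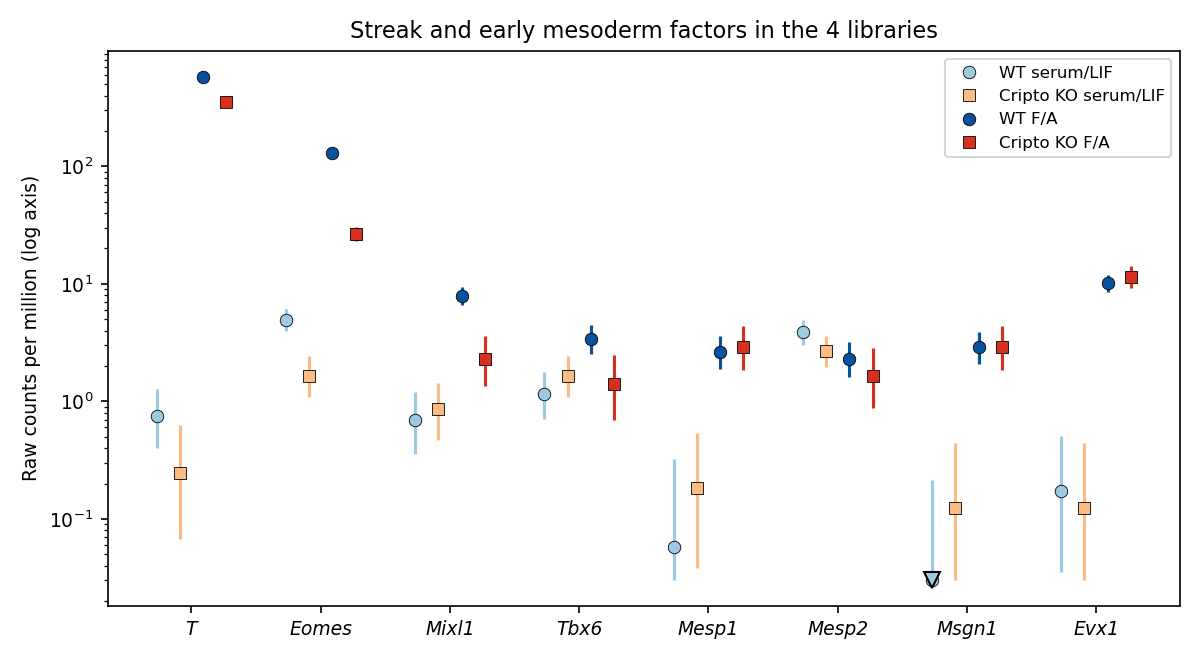
Level of each member in the 4 libraries, in cpm on a log axis, not divided by length. Bars are exact 95% Poisson intervals for counting error and are cut at 0.03. A downward triangle at that line marks a gene with 0 counts. T lies above the other members in both F/A libraries. On this scale Eomes is the highest in serum/LIF WT (4.97 cpm, with Mesp2 at 3.87) and Mesp2 in serum/LIF Cripto KO (2.71 cpm, with Eomes at 1.66).

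The first comparison was F/A against serum/LIF in WT cells, on the authors' quantile-normalised values, with 0 set to 0.5 and a gene called at a fold of at least 2. Of the 8 factors, 7 rose and 0 fell, and the one under the threshold was Mesp2; of all genes tested, 22.1% rose and 20.9% fell. The median log2 change was 5.25, or 4.38 with Msgn1 placed at its lower bound, against -0.07 for all genes. In Cripto KO cells 6 rose and 0 fell, with Mesp2 and Tbx6 under the threshold, against 19.9% of all genes that rose and 19.4% that fell, and the median was 3.99. In bulk RNA, fewer cells expressing a gene and less RNA per cell cannot be told apart.

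T, the T-box gene of the streak and later of the notochord (ENSMUSG00000062327, chromosome 17 of NCBIM37 from 8627288 to 8635361, plus strand), had 13 counts in serum/LIF WT, 8748 in F/A WT, 4 in serum/LIF Cripto KO and 5598 in F/A Cripto KO. Both F/A libraries were thus far above both serum/LIF libraries. The normalised value rose 938-fold in WT (95% counting interval 548 to 1762) and 1533-fold in Cripto KO (598 to 5632), and the width of these intervals came from the few counts in serum/LIF. All intervals here cover counting error only.

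Eomes, the T-box factor needed for definitive endoderm and for the exit of mesoderm from the streak (ENSMUSG00000032446, chromosome 9 from 118387330 to 118395250, plus strand), had 86 counts in serum/LIF WT, 1963 in F/A WT, 27 in serum/LIF Cripto KO and 422 in F/A Cripto KO. It rose 26.1-fold in WT (21.0 to 32.8) and 15.1-fold in Cripto KO (10.1 to 23.5). Eomes was the member with the most counts in serum/LIF WT, and in each medium the Cripto KO library was the lower.

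Mixl1, a homeobox factor of the streak and the endoderm (ENSMUSG00000026497, chromosome 1 from 182623174 to 182627165, minus strand), had 12 counts in serum/LIF WT, 121 in F/A WT, 14 in serum/LIF Cripto KO and 36 in F/A Cripto KO. The F/A WT library stood above the other 3. Mixl1 rose 12.6-fold in WT (6.96 to 25.1) and 2.91-fold in Cripto KO (1.37 to 6.32).

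Evx1, a homeobox factor of the posterior streak (ENSMUSG00000005503, chromosome 6 from 52263492 to 52268372, plus strand), had 3 counts in serum/LIF WT, 154 in F/A WT, 2 in serum/LIF Cripto KO and 180 in F/A Cripto KO. It lies beside the Hoxa cluster, 52617 bases from Hoxa13, which had at most 4 counts in any library. The ratio of F/A to serum/LIF was 69.7 in WT (23.4 to 342) and 90.9 in Cripto KO (24.4 to 762), with at most 3 counts in either serum/LIF library. A long noncoding RNA on the opposite strand, 5730457N03Rik, shares 73 exon bases with Evx1 and had 3, 86, 3 and 94 counts in the same order of libraries. The strand setting of the counting is not given in the sources used here, so reads of the 2 genes in the shared bases cannot be told apart.

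Mesp1, the basic helix-loop-helix factor of the first mesoderm and of the cardiac progenitors (ENSMUSG00000030544, chromosome 7 from 86937127 to 86938674, minus strand), had 1 count in serum/LIF WT, 40 in F/A WT, 3 in serum/LIF Cripto KO and 46 in F/A Cripto KO. Msgn1, the basic helix-loop-helix factor of the presomitic mesoderm (ENSMUSG00000047002, chromosome 12 from 11215188 to 11215754, minus strand, 1 exon), had 0, 44, 2 and 46 counts in the same order. Both genes were close to 0 in serum/LIF and had similar counts in the F/A libraries of the 2 genotypes. For Mesp1 the ratio of F/A to serum/LIF was 55.8 in WT (9.46 to 2259.7) and 16.8 in Cripto KO (5.06 to 87.1). Msgn1 was at least 16.7-fold higher in F/A WT, computed against 3 counts in serum/LIF WT, and its ratio was 25.1 in Cripto KO (6.21 to 219.9).

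Tbx6, the T-box factor that turns streak-derived cells to paraxial mesoderm (ENSMUSG00000030699, chromosome 7 from 133924997 to 133929074, plus strand), had 20 counts in serum/LIF WT, 52 in F/A WT, 27 in serum/LIF Cripto KO and 22 in F/A Cripto KO. It rose 3.27-fold in WT (1.92 to 5.79), and its ratio in Cripto KO was 0.945 (0.423 to 1.97). Its neighbour Ppp4c, 346 bases away on the opposite strand, had 1580 to 2662 counts, many more than Tbx6, and lowest in F/A WT, where Tbx6 was highest. What share of the Tbx6 counts came from reads reaching over from its neighbours was not tested.

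Mesp2, the paralogue of Mesp1 that acts in somite segmentation (ENSMUSG00000030543, chromosome 7 from 86955613 to 86958317, plus strand, 16938 bases from Mesp1), had 67 counts in serum/LIF WT, 35 in F/A WT, 44 in serum/LIF Cripto KO and 26 in F/A Cripto KO. It was the only member with fewer counts in F/A than in serum/LIF in both genotypes. The ratios were 0.613 in WT (0.396 to 0.937) and 0.667 in Cripto KO (0.329 to 1.26), both under the 2-fold threshold. Of the neighbours Mesp1 and Mesp2, only Mesp1 was thus called between the media.

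**Figure D3:**
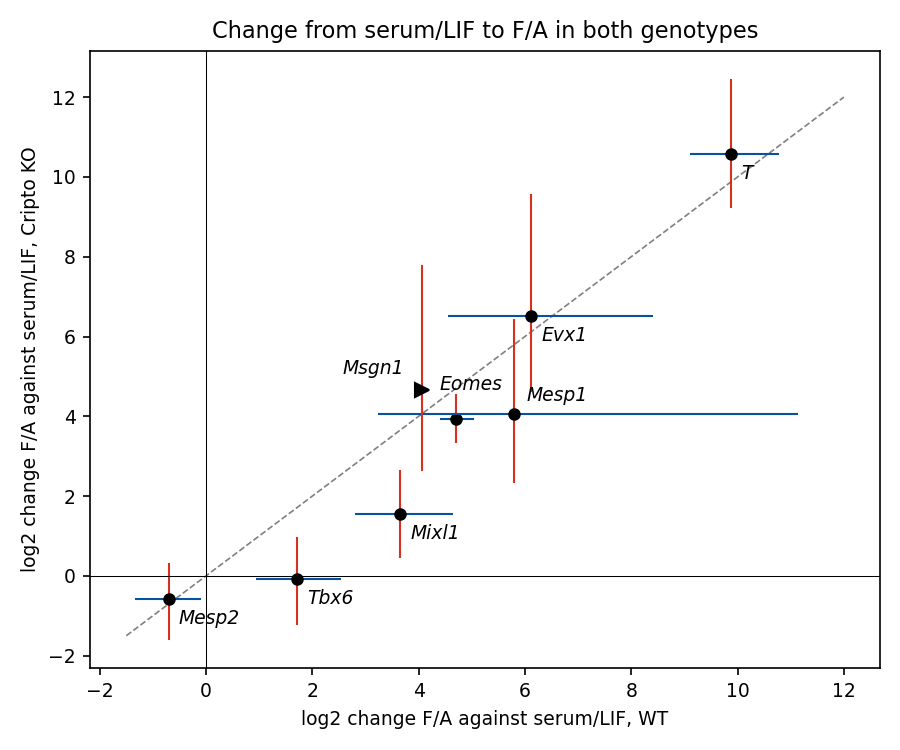
Log2 ratio of F/A to serum/LIF for the 8 members in WT (horizontal axis) and Cripto KO (vertical axis), with 95% counting intervals in blue for WT and red for Cripto KO and the dashed line where both are equal. The triangle marks Msgn1, whose WT change is a lower bound; Mixl1, Tbx6 and Eomes lie below the dashed line with intervals that do not reach it.

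Cripto KO was next compared with WT within F/A. No member was called higher, against 4.59% of all genes, and 3 of the 8 fell, Eomes, Mixl1 and Tbx6, against 5.69% of all genes. The other 5 were under the 2-fold threshold, and the median log2 ratio of the 8 was -0.51, against 0 for all genes. With cpm in place of the quantile-normalised values the same 3 were called, while the share of higher genes among all genes called in F/A moved from 44.7% to 32.4%. This comparison and the WT transition share the F/A WT library.

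Eomes had normalised F/A values of 2030.25 (WT) and 416.375 (Cripto KO), and was 4.88-fold lower in Cripto KO (ratio 0.205, 95% counting interval 0.177 to 0.236, log2 ratio -2.29). Mixl1, at 123 and 40, had a ratio of 0.325 (0.186 to 0.536, log2 ratio -1.62). Tbx6, at 54 and 26, had a ratio of 0.481 (0.227 to 0.934, log2 ratio -1.05). The upper end of the interval was far from 1 for Eomes and close to it for Tbx6, whose call rests on 52 and 22 counts.

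For T the normalised F/A values were 9615 (WT) and 5750.5 (Cripto KO), a ratio of 0.598 (0.573 to 0.624, log2 ratio -0.74). T was therefore lower in the Cripto KO library by more than counting error, without reaching the 2-fold threshold. The 4 remaining members had intervals that spanned 1, with ratios of 1.20 for Mesp1 (0.686 to 2.05), 1.09 for Msgn1 (0.626 to 1.84), 1.16 for Evx1 (0.884 to 1.51) and 0.822 for Mesp2 (0.399 to 1.59). For these 4, the counts leave room for differences in either direction within the bounds given.

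The streak factors therefore did not move as a block between the F/A libraries. Eomes, Mixl1, Tbx6 and T had intervals below 1, and Mesp1, Msgn1, Evx1 and Mesp2 did not. Ratios between the 2 F/A libraries also differed with gene length: the median log2 ratio of the 500 genes closest in length to a member ran from 0.01 for Eomes, with 4155 bases of merged exon, to 0.42 for Msgn1, with 567. After subtraction of that median, the log2 ratio was -2.30 for Eomes, -1.84 for Mixl1, -1.32 for Tbx6 and -0.97 for T, so the 3 calls held and T remained under the 2-fold threshold. The values of Mesp1 and Msgn1 became -0.09 and -0.30 and thereby changed sign, those of Mesp2 and Evx1 became -0.57 and 0.05. The part of gene length in these ratios was not tested.

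**Figure D4:**
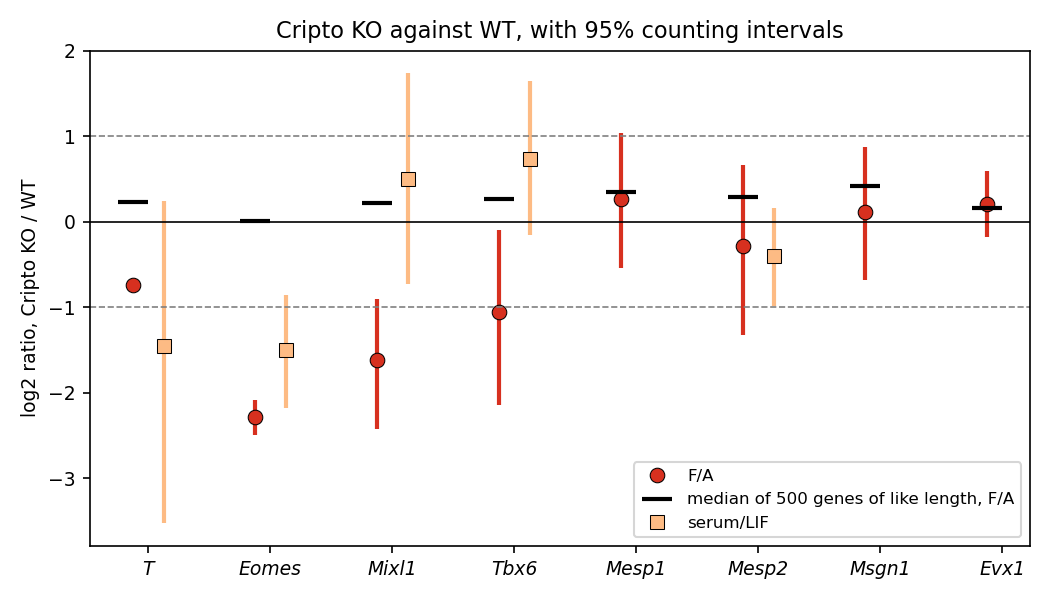
Log2 ratio of Cripto KO to WT for each member in F/A and in serum/LIF, with 95% counting intervals; dashed lines mark 2-fold, and short black bars the median of 500 genes of like length in F/A. In F/A the intervals of Eomes, Mixl1, Tbx6 and T lie below 0, and members with at most 3 counts in both serum/LIF libraries have no serum/LIF point.

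In serum/LIF, 2 members had normalised values at least 2-fold lower in Cripto KO, T and Eomes, against 2.75% of all genes, and 2 were at least 2-fold higher, Mesp1 and Msgn1, against 2.86%. Eomes was the only one of these whose interval excluded 1, with 86 counts in WT and 27 in Cripto KO and a ratio of 0.354 (0.221 to 0.551). For T, with 13 and 4 counts, the ratio was 0.366 (0.0869 to 1.18). Mesp1, Msgn1 and Evx1 had at most 3 counts in both libraries and are given no fold. The ratios of the others were 1.41 for Mixl1 (0.605 to 3.34), 1.67 for Tbx6 (0.901 to 3.13) and 0.756 for Mesp2 (0.505 to 1.12), so that at this depth no difference was detectable for them. Eomes was thus the one member that was called lower in Cripto KO with an interval below 1 in both media.

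The transition was then set side by side between the genotypes. The log2 change in Cripto KO minus that in WT was -2.12 for Mixl1 (counting standard error 0.67) and -1.79 for Tbx6 (0.64). Mixl1 rose less in Cripto KO, and Tbx6 passed the threshold in WT and not in Cripto KO. It was -0.79 for Eomes (0.33), which started from a lower level in serum/LIF Cripto KO, 0.71 for T (0.83) and 0.12 for Mesp2 (0.55). By the normalised values 4 of the 8 members were lower by at least 1 log2 unit, against 9.38% of all genes, but Mesp1 and Msgn1 among them rest on serum/LIF libraries with at most 3 counts. For Msgn1 the sign depends on the 0.5 put in place of its 0 counts in serum/LIF WT, and with that library at 3 counts the difference was 0.59 in the other direction. The count was 3 with Msgn1 at that bound, and 2 over members above the detection limit in all 4 libraries.

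The signals that induce the streak were examined as a list of 8 genes. This list and those that follow were chosen with earlier results of these data known. Of the 8, 2 were higher, 1 lower and 5 under 2-fold in F/A Cripto KO against F/A WT (all genes 4.59% higher and 5.69% lower). The lower one was Tdgf1 itself (1572 counts in WT and 86 in Cripto KO, ratio 0.0562, 0.0405 to 0.0761). Bmp4, the extraembryonic inducer of the streak, had 921 and 1882 counts (ratio 2.08, 1.89 to 2.28), and on the cpm scale its ratio was 1.98, under the threshold. Wnt3a, expressed in the posterior streak, had 6 and 28 counts (5.16, 1.86 to 16.4). Nodal had 721 and 572 counts (0.769, 0.668 to 0.883), Wnt3 309 and 244 (0.762, 0.613 to 0.943) and Fgf8 1256 and 1066 (0.838, 0.755 to 0.928), all 3 under 2-fold with intervals below 1. The remaining members, Fgf4 with 15 and 24 counts and Gdf3 with 10 and 8, had intervals that spanned 1.

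Of 10 secreted antagonists of Nodal, WNT and BMP, 3 were lower, 1 was higher and 6 were under 2-fold in the same comparison (all genes 5.69% lower and 4.59% higher). The 3 were Lefty1 (1200 and 380 counts, ratio 0.309, 0.263 to 0.360), Lefty2 (571 and 238, 0.403, 0.328 to 0.492) and Cer1 (467 and 82, 0.176, 0.125 to 0.243). Lefty1 and Lefty2 encode feedback inhibitors of Nodal that are themselves Nodal targets, and Cer1 encodes Cerberus, an inhibitor of Nodal, BMP and WNT. In F/A these 3 were lower in Cripto KO, as were Eomes, Mixl1 and Tbx6 among the members. In serum/LIF, however, Lefty1 (684 counts in WT and 2330 in Cripto KO, ratio 3.52, 3.23 to 3.84) and Lefty2 (442 and 1224, 2.96, 2.66 to 3.31) were higher in Cripto KO, where Eomes was lower. Of the antagonists under 2-fold in F/A, Chrd (0.554, 0.486 to 0.631), Sfrp1 (0.612, 0.557 to 0.671) and Dkk1 (0.877, 0.785 to 0.979) had intervals below 1. Fst (1.42, 1.27 to 1.59) and Frzb (1.36, 1.22 to 1.51) had intervals above 1, and that of Nog spanned 1. Over all 10 antagonists, 6 intervals lay below 1 and 3 above. The higher one was Sfrp5, a WNT antagonist, with 20 and 50 counts, named after its values were seen.

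Among 35 other genes of the streak and its mesoderm, 33 were tested, of which 29 rose and 3 fell from serum/LIF to F/A in WT, and 30 rose and 2 fell in Cripto KO. Of all genes, 22.1% rose and 20.9% fell in WT, and 19.9% and 19.4% in Cripto KO. Between the F/A libraries, 10 were higher in Cripto KO, 4 lower and 19 under 2-fold (all genes 4.59% and 5.69%), with a median log2 ratio of 0.75, against -0.51 for the 8 factors. Those lower were Lhx1 (1909 and 322 counts, ratio 0.163, 0.138 to 0.191), Gsc (227 and 54, 0.251, 0.162 to 0.375), Cyp26a1 (4821 and 1740, 0.356, 0.331 to 0.383) and Pcdh8 (208 and 88, 0.432, 0.305 to 0.6004). Lhx1 and Gsc are transcription factors of the anterior streak.

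The higher ones with at least 100 counts were Meox1, a homeobox factor of the somites (42 and 582 counts, ratio 13.1, 9.44 to 18.5), Cdx2, a factor of posterior embryonic tissue and of trophoblast (104 and 674, 6.37, 5.10 to 8.02), and Foxc2, a factor of paraxial mesoderm (169 and 984, 5.72, 4.79 to 6.85). The same direction was measured for Snai2 (49 and 228, 4.49, 3.18 to 6.41), Tcf15 (37 and 150, 3.92, 2.61 to 5.98), Fgf17 (37 and 114, 3.05, 1.98 to 4.74), Nkx1-2 (95 and 238, 2.45, 1.86 to 3.24) and Wnt8a (66 and 154, 2.28, 1.62 to 3.22). Of these, Tcf15, Fgf17 and Wnt8a reached 100 counts only with those of F/A Cripto KO not halved. Snai2 acts in the epithelial to mesenchymal transition, Tcf15 in the paraxial mesoderm and Nkx1-2 in the progenitors beside the late streak. Unlike Meox1 and Foxc2, Tcf15 fell from serum/LIF to F/A in both genotypes, from 434 to 37 counts in WT and from 429 to 150 in Cripto KO.

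**Figure D5:**
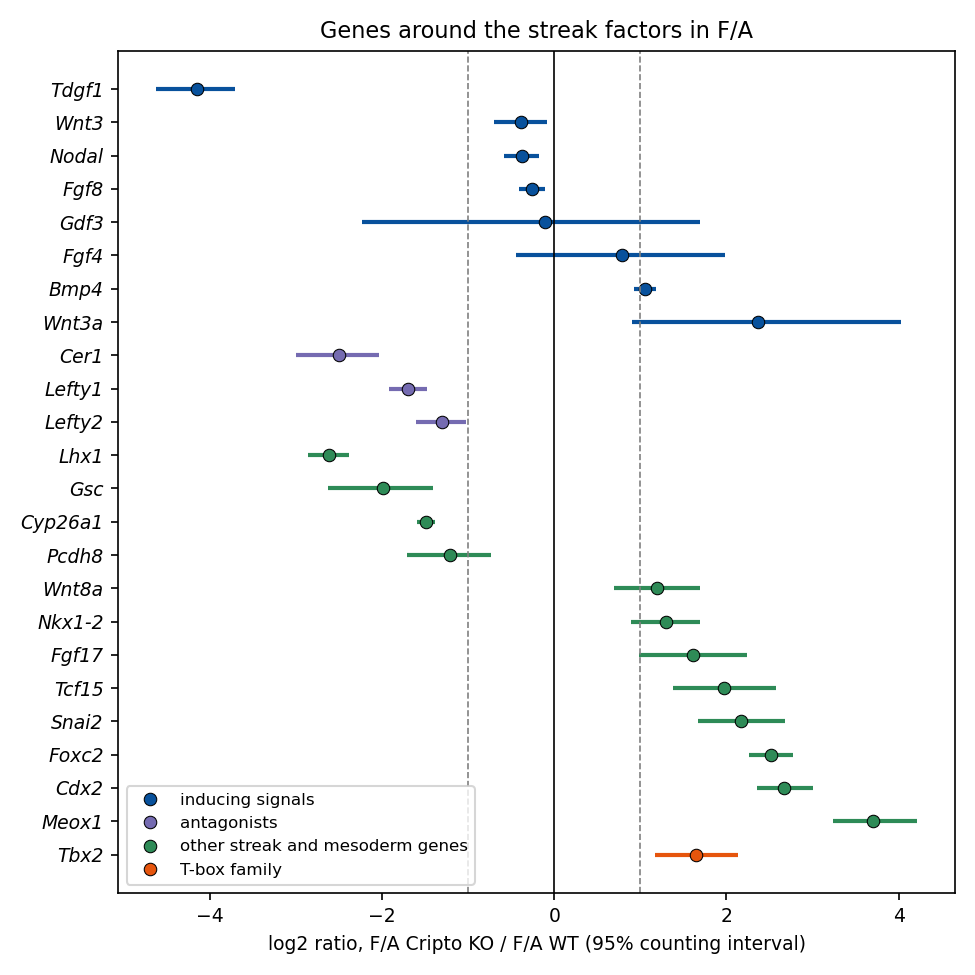
Log2 ratio of F/A Cripto KO to F/A WT, with 95% counting intervals, for the inducing signals, for antagonists and other streak and mesoderm genes past 2-fold with at least 100 counts, and for Tbx2 of the T-box family. Dashed lines mark 2-fold; Cer1, Lefty1, Lefty2, Lhx1, Gsc, Cyp26a1 and Pcdh8 lie to the left of 0 and Meox1, Cdx2 and Foxc2 farthest to the right.

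The T-box family, to which T, Eomes and Tbx6 belong, had 17 listed genes, of which 11 were tested. Of the 8 that are not members, 3 were higher in F/A Cripto KO, 0 lower and 5 under 2-fold (all genes 4.59% and 5.69%). Tbx2 had 61 and 196 counts (ratio 3.14, 2.26 to 4.39), and reached 100 counts only with those of F/A Cripto KO not halved. The others, named after their values were seen, were Tbx5 with 12 and 40 counts and Tbx18 with 8 and 38.

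For members with at least 100 counts, the 3 genes of closest pattern over the 4 libraries were taken among 12391 genes, by the root mean square difference of centred log2 values. For T these were Shh (0.33), Cyp26a1 (0.41) and Gm17493 (0.53). For Eomes they were Gckr (0.29), Foxq1 (0.41) and Arhgef26 (0.43). For Mixl1 they were Tmod2 (0.14), Runx1 (0.20) and Gm2366 (0.23), and for Evx1 Podxl (0.12), Prickle1 (0.15) and Galnt14 (0.15). With 4 libraries such likeness is a description only.

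Markers of other cell types were summed over whole lists. The 8 endoderm markers had 509 cpm (WT) and 316 cpm (Cripto KO) in F/A, with 164 and 227 in serum/LIF, and none was at 0 in any library. Trh made up most of the serum/LIF sums and a smaller part of those in F/A, and without it they were 315 cpm (WT) and 262 cpm (Cripto KO) in F/A and 15.1 and 13.1 cpm in serum/LIF. Between the F/A libraries, 6 of the 8 endoderm markers had intervals below 1 and 2 above. The 3 past 2-fold were all lower in Cripto KO, Trh (ratio 0.278), Hhex (0.352) and Sox17 (0.385), where 5.69% of all genes were lower. Gata6 (1.65, 1.44 to 1.89) and Gata4 (1.61, 1.46 to 1.79) were under 2-fold with intervals above 1. The 13 trophoblast markers, a lineage in which Eomes is also expressed, had 152 cpm (WT) and 280.0 cpm (Cripto KO) in F/A, with 128 and 95.4 in serum/LIF, and Tpbpa and Prl3d1 were at 0 in every library. Elf5 was at 0 in 3 libraries and had 2 counts in F/A WT, while Hand1, expressed in mesoderm too, went from 196 counts (F/A WT) to 1730 (F/A Cripto KO). Without Hand1 and Cdx2 the trophoblast sum was 132 cpm (WT) and 127 cpm (Cripto KO) in F/A, although Gata2, with 41 and 136 counts, was higher too (3.21, 2.15 to 4.86). Ascl2 was lower (ratio 0.377). Of the 10 trophoblast markers tested, 3 were thus higher, 1 lower and 6 under 2-fold (all genes 4.59% higher and 5.69% lower). The sum of 7 neural markers was 309 cpm (WT) and 286 cpm (Cripto KO) in F/A, and 24.6 and 28.5 in serum/LIF. Nes carried most of the F/A sums, and the other 6 summed to 16.1 and 18.9 cpm in F/A and to 12.1 and 15.9 cpm in serum/LIF. The sum of 6 fibroblast markers was 67.8 and 151 cpm in F/A and 108 and 114 in serum/LIF. The part of cell composition in the values of the 8 factors was not tested.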

How the data were processed

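Paired-end reads of total RNA were sequenced from 4 cultures with 1 library each. Per the paper and the labels, the authors aligned them with TopHat2 2.0.13 to mm9 (NCBIM37), counted reads on Ensembl 67 genes with HTSeq 0.6.1p1, and deposited whole-number counts per gene. A second deposited table holds a normalised signal per gene, made by the authors by full quantile normalisation of those counts with genes of low expression removed at 1 cpm. Quantile normalisation of the counts, repeated here, gave the same signal.

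The main measure was the log2 ratio of the normalised values (0 replaced by 0.5), called at a fold of at least 2. Intervals of ratios are 95% Clopper-Pearson intervals of the count ratio, rescaled to the normalised ratio. Intervals of levels are exact 95% Poisson intervals of the count. Totals of 15230856 to 17315442 counts set this precision, except that the counts of F/A Cripto KO (total 15740587) were halved for it. PCR duplicates are not separated in these totals. The probability of NOISeq that the study used was not computed, since without replicates it rests on simulated libraries. Cpm were divided by library totals and by the merged exon length of Ensembl 65 on NCBIM37, which named 98.9% of the genes counted. Promoters came from RefSeq (GRCm38.p6). Computation used Python 3.11.15, scipy 1.17.1, edgeR 4.0.16 and DESeq2 1.42.0 for size factors. The fold threshold and the intervals of count ratios were tested on simulated counts scaled by library totals. Quantile normalisation and lower bounds were not part of that simulation.

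The members and all gene lists were chosen with earlier results of these data known. Genes named by rule are the members, all inducing signals, list genes with at least 100 counts and a fold of at least 2 in F/A, the 3 genes closest to each member with at least 100 counts, the knocked-out gene and, of the marker lists, members with the most counts. Other genes named fall outside this rule. Among them are the antagonists under 2-fold in F/A and single markers such as Pou3f1, Elf5, Gata2, Ascl2, Gata4 and Gata6. Alternatives were cpm, TMM factors, DESeq2 size factors, addition of 5 to all values, only genes with a mean of at least 50 counts, no filter and a fold of at least 3. Chosen after seeing the data were halving of the F/A Cripto KO counts before normalisation, cpm ratios of the list genes in F/A, marker sums without their most abundant genes, Msgn1 at its bound in the difference of the changes, and subtraction of the median of genes of like length.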

Additional observations from a re-analysis of the deposited data

Results flagged for a closer look

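For Mixl1 and Tbx6 the log2 ratio of Cripto KO to WT had opposite signs in the 2 media. It was -1.62 for Mixl1 in F/A and 0.50 in serum/LIF, and -1.05 for Tbx6 in F/A and 0.74 in serum/LIF. The log2 ratio of F/A to serum/LIF of Tbx6 was 1.71 in WT and -0.08 in Cripto KO, the latter close to 0 and under the 2-fold threshold. With 1 library per condition these differences were not tested. The serum/LIF intervals of both genes, and that of Tbx6 in Cripto KO, spanned a ratio of 1.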

How the results depend on the processing

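Counts of members called were recomputed in 37 cases over the 4 comparisons and the difference of the changes, and 30 stayed within 1.5 times the value reported. A mean of at least 50 raw counts left only T, Eomes and Evx1 in the table, and with it 3 members were called in the WT change, 3 in the Cripto KO change, 1 in F/A (Eomes) and 2 in serum/LIF. Adding 5 to every value left 1 call in serum/LIF (Eomes) and 2 in the difference of the changes (Mixl1 and Tbx6), and a fold of at least 3 left 2 in serum/LIF (Mesp1 and Msgn1, with at most 3 counts). In F/A, Tbx6 lost its call with 5 added and at a fold of 3, and Eomes and Mixl1 kept theirs. Of 48 recomputed log2 ratios of the members in F/A, 46 kept their sign, and the exceptions were Mesp1 and Msgn1 after subtraction of genes of like length; T ran from -0.97 to -0.66. With cpm, the share of higher genes among all genes called in serum/LIF moved from 51.0% to 38.7%. Per kb of median transcript length, the F/A levels of T were 421 (WT) and 261 (Cripto KO) cpm per kb and those of Eomes 44.9 and 9.34, Evx1 (5.17 in F/A WT) ranked above Msgn1 (5.10), and Eomes no longer overlapped Msgn1 in F/A Cripto KO. No paired analysis was possible because each condition had 1 library. Low counts limit every value of Mesp1, Msgn1 and Evx1 in serum/LIF.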
